A study of Mus musculus with 1152 samples.

Results

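Ifitm1, Ifitm2, Ifitm3 and Ifi27 are interferon-linked genes, and their rows were taken from a table of single lymphatic endothelial cells (LECs). The 4 genes, of 23168 in the table, had been chosen by their measured values in these same cells, as genes with a high level that varied apart from other interferon genes, so their levels and their correlations are given as descriptions, with no test. Aged c57bl/6 mice were the source of the cells, which were taken from their nasopharyngeal lymphatic plexus (NPLP), sorted as CD31+ PDPN+ cells and sequenced singly in plates with Smart-seq3, which covers full transcripts. There was 1 group, aged NPLP LECs, with no treatment, no younger mice and no label for the animal of a cell, and the tissue had been pooled from several mice. The cells therefore stood as 1 sample without replicates, and every spread below is a spread between cells. Of the labelled cells, 56.9% were analysed here, and all of those enter each value below unless a sentence says otherwise.

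The description that led to the choice held only in part. Ifitm3, Ifitm2 and Ifi27 were found in most or all cells, but Ifitm1 was detected in only 54 cells (8.23%) and had a mean of 0.085 on the natural log scale used below. Ifi27 and Ifitm2 showed almost no correlation with the other interferon genes, but Ifitm3 rose and fell with them, with a Spearman rho of 0.34 across cells.

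Ifitm genes encode small interferon-induced transmembrane proteins that sit in the plasma membrane and in endosomes and hinder the fusion of enveloped viruses with the cell. Ifitm3 is found mainly in endosomes and lysosomes, Ifitm1 mainly at the cell surface, and many cells hold IFITM proteins even without an interferon signal. Ifi27 (also called ISG12) belongs to a separate family of small hydrophobic proteins that are induced by type I interferon and have been linked to mitochondria and the nuclear envelope.

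Ifitm1, Ifitm2 and Ifitm3 lie side by side on chromosome 7 (GRCm38, GENCODE M21). Ifitm2 spans 140954837 to 140955987 on the minus strand, Ifitm1 spans 140967221 to 140969825 on the plus strand and Ifitm3 spans 141009586 to 141010770 on the minus strand. The gaps were 11233 bases from Ifitm2 to Ifitm1 and 39760 bases from Ifitm1 to Ifitm3. Ifi27 lies on chromosome 12, from 103434211 to 103440239 on the plus strand, 1927 bases from its relative Ifi27l2a, which spans 103442167 to 103443680. All are annotated as protein-coding genes.

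The Ifitm genes are close copies, which bears on how short reads are assigned to them. The coding sequences of Ifitm2 and Ifitm3 were identical in 75.8% of alignment columns, gaps included. The shares were 63.5% for Ifitm1 and Ifitm3 and 60.2% for Ifitm1 and Ifitm2. Ifitm1 has the shortest coding sequence of these genes, which lowers the shares of its pairs. Ifitm2 and Ifitm3 shared an unbroken stretch of 69 coding bases. It lies in exon 1 of 2 in both genes, at chr7:140955718-140955786 in Ifitm2 and at chr7:141010445-141010513 in Ifitm3, and is shown on the coding strand. The capitals mark the last 40 bases, which Ifitm1 also has, in exon 2 of 3 at chr7:140968351-140968390.
Ifitm2 and Ifitm3: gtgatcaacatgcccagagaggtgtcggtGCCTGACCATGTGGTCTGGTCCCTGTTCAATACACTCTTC

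Of all words of 50 bases in the Ifitm2 transcript, 48.5% also occurred in a transcript of another annotated gene. Most of these were in the gene models Gm45717, Gm11951 and Gm8865. The share was 10% for Ifitm3, 6.36% for Ifitm1 and 0% for Ifi27. In the table, Gm11951 was detected in 23 cells and Gm8865 in 5 cells, while Gm45717 was not among its genes. How reads that match several genes were counted is not given in the sources used here, so the levels of the Ifitm genes, and of Ifitm2 most of all, carry this uncertainty. In the alignment of Ifi27 and Ifi27l2a, 25.7% of columns were identical, gaps included. Ifi27l2a has a much shorter coding sequence, which holds this share down, so it does not measure how far apart they are. The longest identical run in this alignment was 11 coding bases. Shared stretches outside the alignment were searched only as words of 50 bases.

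The promoters of the members were searched for the core of the interferon-stimulated response element, the DNA element bound by interferon-activated transcription factors. The core was taken as 2 copies of the letters GAAA with any 2 bases between them, on either strand, from 250 bases before to 50 bases after the RefSeq transcription start (GRCm38.p6). Of the 3 members with a promoter sequence, Ifitm2 held 1 match and Ifitm3 held 2, while Ifitm1 held none. The matches are shown on the gene's strand as windows of 30 bases with the match in capitals, since they differ between members of the same gene cluster.
Ifitm2 (chr7:140955988-140956017, bases -46 to -37 from the start): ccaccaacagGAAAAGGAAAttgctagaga
Ifitm3 (chr7:141010723-141010752, bases 3 to 12): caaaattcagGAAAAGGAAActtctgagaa
Ifitm3 (chr7:141010706-141010735, bases 20 to 29): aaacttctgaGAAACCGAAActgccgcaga

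The first Ifitm3 match and the Ifitm2 match had the same 10 letters. The core was present in 3.44% of all 32851 promoters in that table, in 3.99% of its genes and in 17 of the 33 type I interferon-stimulated genes on the list that had a promoter sequence. With 1 mismatch allowed, 90.9% of those listed genes and 38.9% of all genes held a match. A match of letters is a description of the window and says nothing about binding, and the missing match in Ifitm1 says only that these letters were not in this window.

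Depth varied widely. A cell had between 7046 and 10727631 reads, with 148202 in the median cell, and between 2006 and 7679 detected genes. The cells carried LEC transcripts, with the 8 identity genes detected in a median of 97% of cells, while haematopoietic markers were detected in a median of 1.22% and epithelial markers in at most 0.61%. Blood endothelial markers were mixed, from 2.44% of cells for Flt1 to 96.2% for Emcn. Levels are the deposited values, which are natural logs of reads per 10000 reads of a cell with 1 added, and a gene was called detected at any value above 0.

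Ifitm3, the endosomal antiviral factor, was detected in every cell analysed (100%, exact 95% interval 99.4 to 100%). Its mean was 4.20 ± 0.70 (SD over cells), with a lowest value of 0.63, a median of 4.27 and a highest value of 5.64. No cell lacked it, and its lowest value, in 1 cell, still equalled 0.87 reads per 10000. On the linear scale its mean was 79.6 reads per 10000, from 20.7 at the 5th percentile of cells to 170.6 at the 95th. It took 0.796% of a cell's reads on average and up to 2.82%.

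Ifitm2 was detected in all but 3 cells (99.5%, interval 98.7 to 99.9%). Such intervals cover counting error only. Its mean was 1.69 ± 0.56, with a median of 1.71 and a highest value of 3.77, and the 3 cells without a read had 0. Its linear mean was 5.34 reads per 10000, from 1.03 at the 5th percentile to 11.3 at the 95th.

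Ifi27 was detected in all but 61 cells (90.7%, interval 88.2 to 92.8%). Its mean was 1.35 ± 0.81, with a median of 1.47 and a highest value of 3.48. Its linear mean was 4.15 reads per 10000, with 11.6 at the 95th percentile. With a stricter limit, a value above 1, only 69.1% of cells counted as positive.

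Ifitm1 was detected in 8.23% of cells (6.24 to 10.6%). In the other 91.8% of cells it had no read. Its highest value was 3.48, equal to 31.4 reads per 10000, while the median over the cells with a read was 0.93. Of the 41 interferon-stimulated genes in the table (of 43 listed), 39 were detected in more cells than Ifitm1. Examples are the helicase gene Ifih1 in 36.3% of cells and the antiviral gene Ifit1 in 32.6%.

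At least 99% of cells held a read of Ifitm2 and Ifitm3, and 0.583% of all genes were detected this widely. At least 90% of cells held a read of 3 of the 4 genes, against 1.96% of all genes. Since the members were chosen by their level, nothing follows from these shares.

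**Figure D1:**
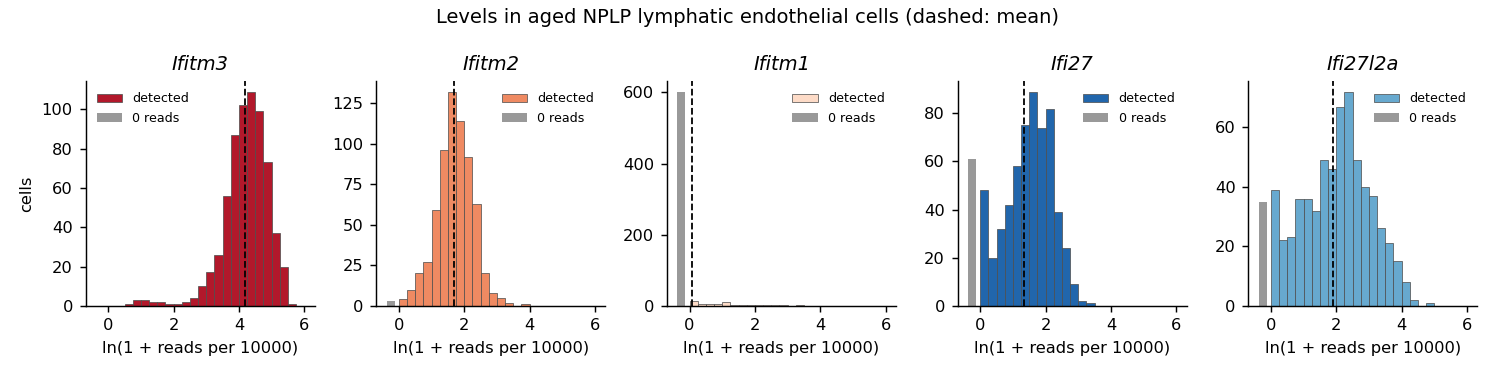
Histograms of the level in single cells, 1 panel per gene. The x axis is ln(1 + reads per 10000), the y axis the number of cells, which has its own scale in each panel, the grey bar the cells with 0 reads and the dashed line the mean. Ifitm3 lay around 4.20 with 12 cells below 2, Ifitm2 lay around 1.69, 91.8% of cells had no Ifitm1 read, and Ifi27 and Ifi27l2a spread from 0 upwards.

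Per kilobase of exon, the order of the members was Ifitm3, Ifitm2, Ifi27 and Ifitm1. The length was the union of all annotated exons of a gene. For Ifi27 and Ifitm1 this was longer than the transcript with the longest coding sequence, which lowers their per-kilobase values. Ifitm3 had a mean of 117.3 reads per 10000 per kilobase, rank 1 of the 22224 genes with a usable annotation, ahead of Gm10076 at 51.4 and the ribosomal protein gene Rplp1 at 42.5. Ifitm2 had 8.15 per kilobase (rank 63), Ifi27 had 2.83 and Ifitm1 had 0.263 (rank 1869). Within single cells the per-kilobase level of Ifitm3 was a median of 14.4 times that of Ifitm2, from 4.47 times at the 5th percentile to 62.5 times at the 95th, and it was the higher of the pair in all but 3 cells. Of all reads of the 6 Ifitm genes in the table, Ifitm3 took a median of 93.1% and Ifitm2 a median of 6.23% per cell.

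The relatives of the members had a wide range of levels. Ifi27l2a had a mean log value of 1.90 ± 1.10, was detected in 94.7% of cells, and had a per-kilobase level of 22.7 (rank 17), 8.02 times that of Ifi27. Ifitm5, whose product is known from bone-forming cells, was detected in 18.4% of cells. Ifitm10 was detected in 15.5%, Ifitm6 in 12 cells and Ifi27l2b in 5 cells. Of the 41 interferon-stimulated genes, 2 had a per-kilobase level above that of Ifitm2. These were Bst2, the gene of the antiviral protein tetherin, at 9.37 and Ly6e at 8.32 reads per 10000 per kilobase. Isg15 at 4.99 was the only further gene above Ifi27, and 14 of the 41 were above Ifitm1. The median over that list was 0.159 per kilobase.

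Detection rose with depth for Ifi27 and hardly for the others. In the 25% of cells with the fewest reads, 7046 to 37809, Ifi27 was detected in 84.1%. In the 25% with the most, 671835 to 10727631, it was detected in 97.6%, all but 4 cells. Its mean log level stayed between 1.30 and 1.39 over the 4 groups of depth. Thinned to 20000 reads per cell, which left out 88 shallower cells, Ifi27 was detected in 81.5% of cells and Ifitm2 in 97.9%. Ifitm1 was detected in 13 or 14 cells of each group of depth, and its thinned share was 6.16%. The mean of Ifitm2 was 1.58 in the shallowest group and 1.85 in the deepest, and that of Ifitm3 was 4.15 and 3.98.

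In the deepest 25% of cells the spread remained wide. Reads and not molecules were counted, so how many molecules lay behind them is unknown. There the median cell held 573.5 reads of Ifi27, yet its linear level ran from 0.0127 reads per 10000 at the 5th percentile to 11.1 at the 95th. Ifitm2 ran from 1.83 to 14.2 and Ifitm3 from 17.1 to 127.5 reads per 10000 in the same cells. Ifitm1 had no read in 92.1% of these cells, although the median cell held 9595.5 reads of Ifitm3, its close copy.

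**Figure D2:**
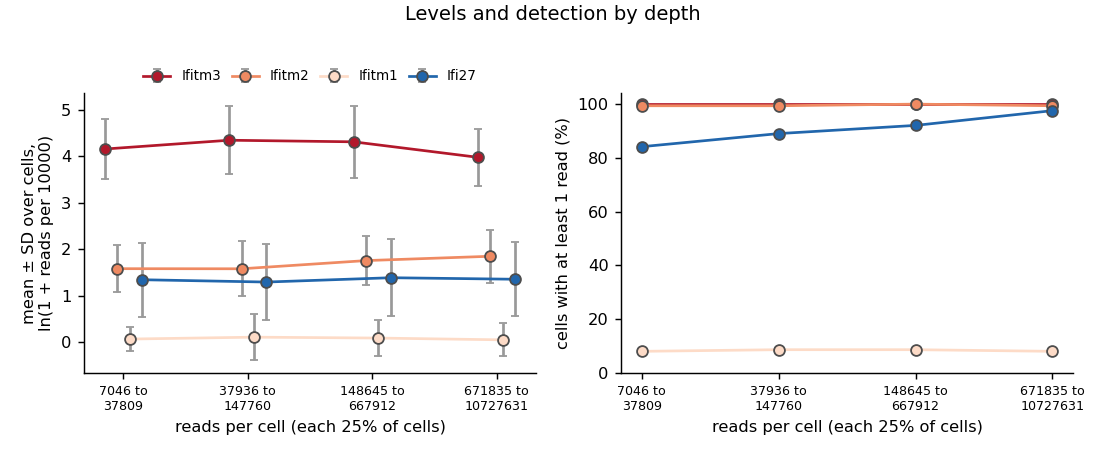
Level and detection in 4 groups of cells by total reads, each with 25% of the cells. Left, mean and SD over cells of the natural log value, and right, the percent of cells with at least 1 read. Ifi27 rose in detection from 84.1% to 97.6% at a nearly level mean, and Ifitm1 stayed at 13 or 14 cells.

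The members differed in how much they varied for their level. The SD of each of the 5279 genes detected in at least 30% of cells was compared with a smooth trend of SD on mean. Ifitm2 was among the least variable, at percentile 0.398 of the residual, and ranked 99 by SD among itself and the 100 genes nearest in mean, whose median SD was 0.729. Ifi27 was at percentile 89.6, and ranked 36 by SD among itself and its own 100 nearest genes. Ifi27l2a was at percentile 99.4 and ranked 7 in the same way.

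Ifitm3 was at percentile 93.9, but only 4 genes had a mean above 4, and the trend was poorly set there. Its percentile fell to 34 when genes detected in at least 10% of cells set the trend, and to 0.143 with no detection limit. Set directly against the 35 genes with a mean above 3, its SD of 0.70 ranked 10, where the median was 0.628. On the squared coefficient of variation of linear values, Ifi27 was at percentile 44 and Ifitm2 at 11.2, so the position of Ifi27 also depended on the scale.

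A small tail of cells had little Ifitm3. Its value was below 2 in 12 cells, 10 of which fell in the same cluster of 200 cells, the Ptx3+ capillary-like cells described below. These 12 cells came from 9 of the 12 blocks of 96 consecutive cell numbers and had at least 25301 reads each. Prox1, the lymphatic master regulator, and Flt4, the receptor VEGFR3, were detected in all 12, as was Ifitm2. Pecam1, the gene of the sort marker CD31, was detected in 11 of them, Ifi27 in 10 and Ifi27l2a in 9. Their mitochondrial share of reads ran from 1.71 to 9.13%, beside 0.369 to 9.13% over all cells. The cell with the highest share of all was thus among them. Whether cell quality bore on this tail was not tested.

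Ifitm2 and Ifitm3 rose and fell together, while Ifi27 did not follow either. Across cells the Spearman rho was 0.32 between Ifitm2 and Ifitm3, -0.08 between Ifitm3 and Ifi27 and 0.04 between Ifitm2 and Ifi27. The rho of Ifitm2 and Ifitm3 was 0.24 to 0.38 within the 5 clusters and above 0 in 11 of the 12 blocks. Over 7 alternatives with the same measure it lay between 0.26, with the mitochondrial and ribosomal shares of reads regressed out, and 0.38, in cells with at least 4000 detected genes. The alignment of reads to these similar copies was not tested as a part of this value. All such values come from cells that share a library preparation, and each pair of genes shares a cell's depth and total, so they are descriptions over cells of 1 sample.

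Ifitm1 had a rho of 0.13 with Ifitm2, 0.10 with Ifitm3 and 0.00 with Ifi27. The first fell to 0.02 with the mitochondrial and ribosomal shares regressed out. With reads in 54 cells, such weak values are no finding.

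The closest match of Ifitm3 was not a member but Ifi27l2a, with a rho of 0.48, 0.38 to 0.65 within clusters and above 0 in all 12 blocks. Ifi27, the neighbour and family relative of Ifi27l2a, had a rho of -0.14 with it, below 0 in all 5 clusters but above 0 in 3 of the 12 blocks.

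**Figure D3:**
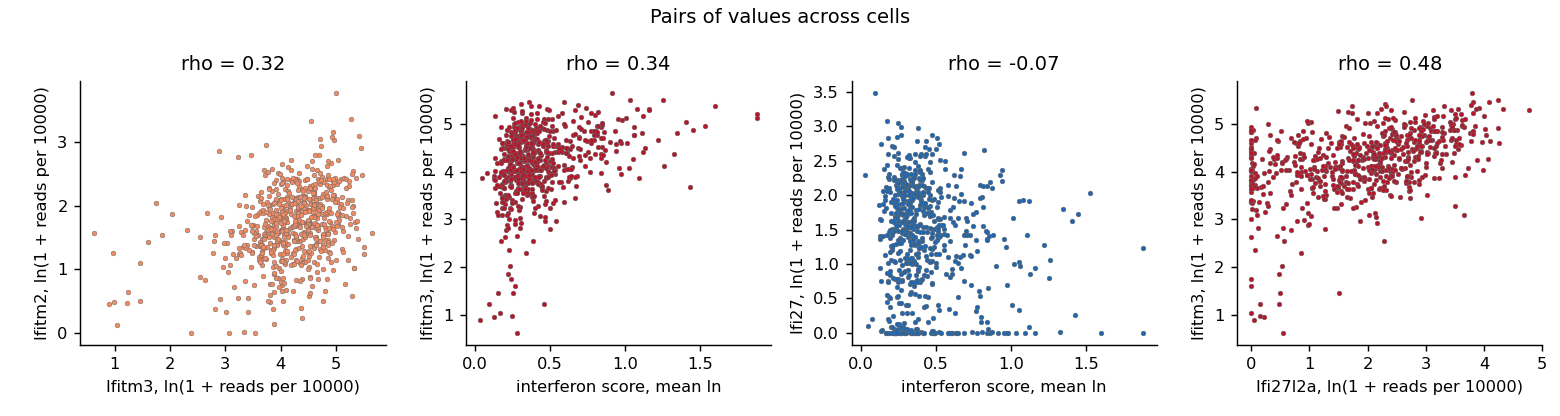
Values of pairs of genes, 1 point per cell. Axes are ln(1 + reads per 10000), or the interferon score, the mean of that value over 41 interferon-stimulated genes. Ifitm3 rose with Ifitm2, with the score and most with Ifi27l2a, while Ifi27 showed no rise with the score.

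The relation to other interferon genes was taken from a score, the mean log value of the 41 interferon-stimulated genes, which left out the members. The rho with this score was 0.34 for Ifitm3, 0.02 for Ifitm2, -0.03 for Ifitm1 and -0.07 for Ifi27. Ifi27l2a, outside the score as well, had 0.46. For Ifitm3 the value was above 0 in all 5 clusters, from 0.26 to 0.48, and in all 12 blocks, from 0.12 to 0.75. The highest of these came from a block of 20 cells. Without Ly6e and Bst2, the genes of highest level in the score, it was 0.29, and in cells below and above the median of total reads it was 0.30 and 0.37.

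Gene by gene, Ifitm3 had a rho above 0.1 with 22 of the 29 interferon-stimulated genes that were detected in at least 30% of cells, where 7.6% of all genes compared passed this limit, and below -0.1 with 0, against 3.33% of all. Among the highest were Ly6e (0.41), Bst2 (0.32), the transcription factor gene Irf7 (0.23) and the gene of the ubiquitin-like modifier Isg15 (0.22). The lowest was Herc6 (-0.01). The median over the 29 genes was 0.13, against 0.00 over all genes compared. These medians lay well under the value for the score, in which the genes were averaged.

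Ifitm3 also rose with genes of antigen presentation. Its rho was above 0.1 with 13 of 14 MHC class I genes, with 0.27 for H2-T23, 0.24 for H2-D1 and 0.16 for B2m, the light chain of all class I molecules. H2-Q4 was the exception at 0.04. Several H2 genes are near copies of each other, so these are not separate observations. With the 12 receptor and signalling genes of the interferon pathway in the comparison, such as Ifnar1, Jak1 and Tyk2, the rho of Ifitm3 passed 0.1 with 0 genes, and ranged from -0.05 to 0.10. With 7.6% of all genes above 0.1, a count of 0 among 12 is near that share.

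Ifi27 did not rise with the interferon-stimulated genes. Its rho was above 0.1 with 0 of the 29, where 1.65% of all genes passed, and a count of 0 among 29 is near that share. The rho was below -0.1 with 2 of the 29, Bst2 (-0.15) and Zbp1 (-0.11), where 0.246% of all genes were. The median over the 29 genes was -0.04, and no value among the 14 MHC class I genes exceeded 0.01. In cells above the median of total reads the rho of Ifi27 with the score was -0.10, and in the others -0.02. It ran from -0.19 to 0.02 within clusters. Within blocks it ran from -0.22 to 0.22 and was above 0 in 4 of the 12.

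Ifitm2 had a rho above 0.1 with 1 of the 29 genes, Ifih1 (0.10), where 14.8% of all genes passed, and below -0.1 with 0, where 1.5% did. Its median over the 29 genes was 0.01, against 0.04 over all genes. Ifitm1 passed 0.1 in neither direction with any of the 29 genes, where 1.42% of all genes lay above 0.1 and 0.17% below -0.1. Counts of 0 among 29 are near these shares.

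**Figure D4:**
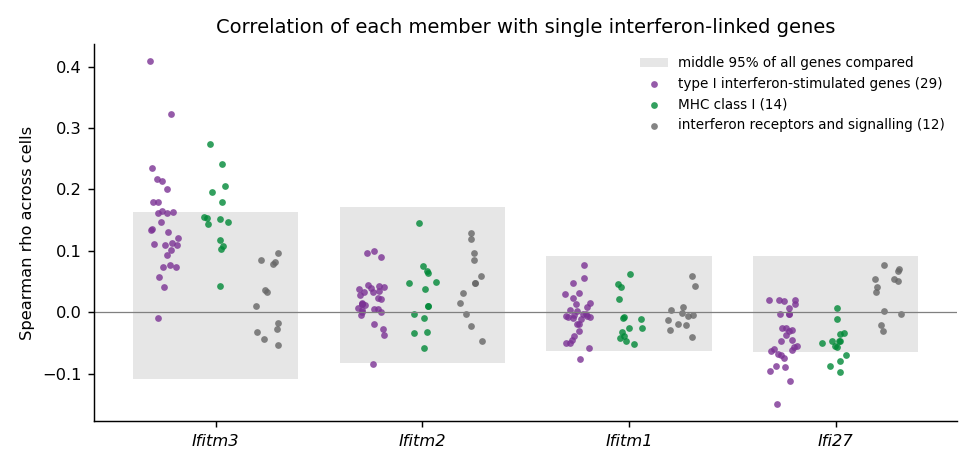
Spearman rho of each member with single genes of 3 lists across all cells analysed, 1 point per gene, with the number of genes in the legend. The grey bands hold the middle 95% of all genes compared. Ifitm3 had most interferon-stimulated and MHC class I genes above 0.1, while most points of Ifitm2, Ifitm1 and Ifi27 lay between -0.1 and 0.1. Ifitm2 was above 0.1 with H2-T23, Tmem173, Socs3 and Ifih1, and Ifi27 was below -0.1 with Bst2 and Zbp1.

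Beyond these lists, the genes most like Ifitm2 were Fth1 (rho 0.39), the tetraspanin gene Cd9 (0.35), Clca3a1 (0.33), Ifitm3 (0.32) and the lipocalin gene Lcn2 (0.30). Cd9 is on the list of genes whose products are known to act with IFITM proteins. Of the 8 genes of that list compared, Ifitm2 also passed 0.1 with Cav1 (0.23), and it was below -0.1 with the ubiquitin ligase gene Nedd4 (-0.11). That makes 25% of the list above 0.1, beside 14.8% of all genes. The least like Ifitm2 were the water channel gene Aqp1 (-0.34), Gm525 (-0.25) and Prss23 (-0.25). Aqp1 and Gm525 were among the top genes of cluster 1, and with cluster means removed their values were -0.17 and -0.09, while that of Cd9 was 0.25.

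The genes most like Ifitm3 after Ifi27l2a and Ly6e were Gm10076 (0.40), Gm10736 (0.34) and the ribosomal protein gene Rpl37a (0.34). The least like it were the mitochondrial genes mt-Cytb (-0.33), mt-Nd1 (-0.31) and mt-Co1 (-0.31). Ifitm3 had a rho of -0.36 with the mitochondrial share of a cell's reads and 0.30 with the share of ribosomal protein genes. With both shares regressed out, mt-Cytb stood at -0.08 and Rpl37a at 0.16, but Ifi27l2a at 0.48, Ly6e at 0.47 and the interferon score at 0.43. Fewer mitochondrial reads and a higher Ifitm3 level therefore moved together in these cells, and the interferon relation was as large without them.

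For Ifi27 the highest values were 0.16 for the SUMO gene Sumo2, 0.15 for Lmo4, 0.15 for the adhesion gene Icam2, 0.15 for Gmfg and 0.15 for B130024G19Rik. The lowest were -0.17 for Rnf213, -0.15 for Bst2 and -0.14 for Ifi27l2a. No gene reached a size above 0.17 with Ifi27, in contrast to 0.48 for Ifitm3 and 0.39 for Ifitm2. For Ifitm1 the highest were Meox1 (0.16), Dbi (0.14), Chmp4b (0.14), Acer2 (0.13) and Zfp948 (0.13), and the lowest Hnrnpl (-0.14), Gas7 (-0.12) and Ppp2ca (-0.11). All of these values are weak, and those of Ifitm1 rest on reads in 54 cells.

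Between clusters of cells, the means of Ifitm2 and Ifitm3 differed by more, beside their spread over cells, than those of most genes, while those of Ifi27 and Ifitm1 did not. The clusters were built with the members, the interferon genes and the MHC class I genes left out. The resolution was raised in steps until at least 5 clusters formed, so the number of clusters was set by this limit and is no finding. Of the 5 clusters, 3 could be named from markers. Cluster 1 (200 cells, 30.5% of all) was Ptx3+ capillary-like, raised in Ptx3, Stab2, Mrc1 and Itih5, but also in Lyve1 of the precollecting list, in Plvap and Aqp1 of the blood endothelial list and in the haematopoietic marker Fcer1g. Clusters 3 and 4 (100 and 86 cells) were Ptx3- capillary-like, the former raised in Fndc1, Reln and Ccl21a and the latter in Ptn, Stc1 and Anxa3. Lyve1 was raised in cluster 3 too, and Clu, Vwf, Cd34 and the fibroblast marker Dcn in cluster 4. Cluster 2 (29.7% of cells) had 3 precollecting genes raised (Foxp2, Apoe, Bmp4) and 3 downstream valve genes (Gja4, Clu, Adm). It was left unnamed because these 2 classes tied, and Vwf, Emcn and Colec12 were raised in it too. Cluster 5 (75 cells), with Cldn11, Gata2, Stc1 and Cd34 raised, had too few raised markers of any 1 class.

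Ifitm2 was lowest in the Ptx3+ capillary-like cluster 1, at 1.42 ± 0.58 (SD over cells), and highest in cluster 2, at 1.90 ± 0.54. The other 3 clusters had means from 1.72 to 1.77. The difference of 0.477 was 0.855 of the SD over all cells, and 96.3% of the genes compared had a smaller ratio. The difference kept within 1.5 times this size under all 6 other clusterings run.

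Ifitm3 was highest in the same cluster 2, at 4.42 ± 0.58, and lowest in cluster 5, at 3.96 ± 0.75, with cluster 1 at 4.05 ± 0.86. The difference of 0.462 was 0.657 of the SD over all cells, and 92.1% of genes had a smaller ratio. With the members, interferon and MHC genes kept in the clustering, which also moved the resolution from 0.7 to 0.8 and gave 6 clusters, the difference was 0.711. At resolution 1.5, with 9 clusters, it was 0.77, and a highest minus lowest mean can widen with the number of clusters alone.

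Ifi27 ranged from 1.26 ± 0.75 in cluster 5 to 1.45 ± 0.86 in cluster 3, and 29.4% of genes had a smaller ratio of range to SD. Ifitm1 was detected in 4% of cluster 5 (3 of 75 cells) and in 11.6% of cluster 4 (10 of 86 cells), with exact intervals of 0.833 to 11.2% and 5.72 to 20.3% that overlap. In every cluster the order of mean levels per kilobase was Ifitm3, Ifitm2, Ifi27 and Ifitm1.

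**Figure D5:**
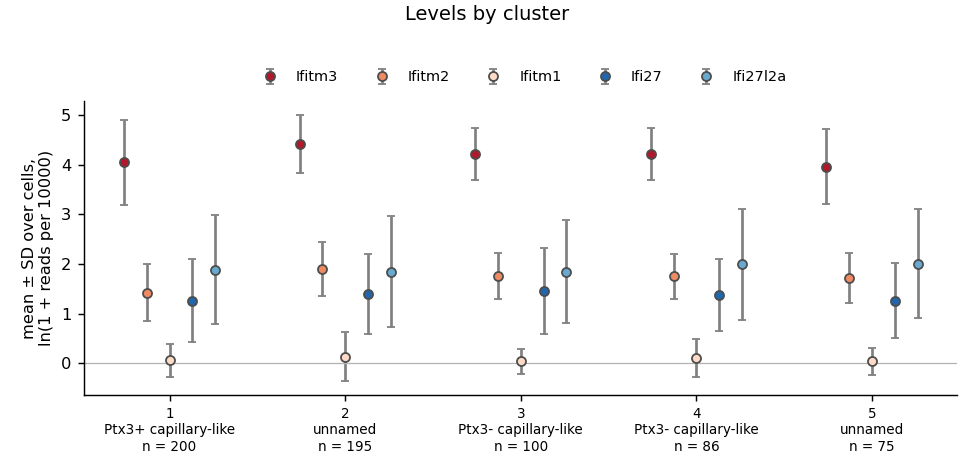
Mean and SD over cells of ln(1 + reads per 10000) in each of 5 clusters, with the number of cells under each. Ifitm3 lay between 3.96 and 4.42 in all 5 clusters, and the bars of the clusters overlapped for every gene.

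Blocks of 96 consecutive cell numbers are the only technical grouping that the labels allow. The difference between highest and lowest mean was wider over the 12 blocks than over the 5 clusters for Ifitm3 (0.651 and 0.462). The same held for Ifi27 (0.505 and 0.189) and Ifitm1 (0.158 and 0.0985). It was narrower for Ifitm2 (0.249 and 0.477). Such a difference can widen with the number of parts alone. Ifitm3 ran from 3.73 ± 0.75 in block 9 (20 cells) to 4.39 ± 0.78 in block 12 (38 cells), and Ifi27 from 1.11 ± 0.78 in block 7 (60 cells) to 1.61 ± 0.80 in block 12. Differences between blocks held 3.80% of the variance of Ifitm3, 4.32% of that of Ifi27, 2.23% of that of Ifitm2 and 1.58% of that of Ifitm1. Whether a block is a plate is not given in the labels.

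Genes induced by cell dissociation had little relation to the members. The rho with a score of 20 immediate-early and dissociation genes was 0.08 for Ifitm2, 0.02 for Ifitm3, -0.01 for Ifi27 and -0.01 for Ifitm1. The summed level of the 6 blood endothelial markers had a rho of -0.24 with Ifitm2 and -0.07 with Ifitm3, and these markers include Aqp1. Haematopoietic, fibroblast, mural, glial and epithelial marker sums had values between -0.08 and 0.08 with every member, and their medians over cells were 0. The rho with total reads was 0.19 for Ifitm2, -0.12 for Ifitm3, 0.04 for Ifi27 and -0.01 for Ifitm1.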

How the data were processed

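Single cells from 1 group, aged NPLP LECs, were analysed. Per the labels and methods, the authors aligned reads to mm10 with STAR, counted them with featureCounts (Subread), kept cells with at least 2000 genes and at most 10% mitochondrial reads, and normalised in Seurat 4.1.0. The deposited values were natural log values of 1 plus reads per 10000. The methods state log2, but the exponential minus 1 summed to 10000 in every cell. Whole reads were recovered for 100% of values above 0 within 0.01 reads. Reads, not unique molecules, were counted.

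The members and gene lists were chosen with earlier results of these data known. Cells are not replicates, so no test was run. Shares carry exact (Clopper-Pearson) 95% intervals from scipy 1.17.1. Cells were thinned to 20000 reads where stated. Genes named were the members, the gene lists, and for each member the 5 genes with the highest and the 3 with the lowest Spearman rho among genes that at least 30% of cells expressed. Clusters followed the study's steps (Seurat 5.3.0, R 4.3.3), with naming limits set after the data were seen. No doublet caller was run on these wells of 1 sorted cell. Positions and coding sequences came from GENCODE M21 and promoters from RefSeq; protein identity was not computed here. Each step (read recovery, thinning, correlation ranking, spread, clustering) was tested on simulated data whose answers were known. The settings tried otherwise are given with their effect at the end.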

Additional observations from a re-analysis of the deposited data

How the results depend on the processing

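Of the alternative values, 83.2% stayed close to the value reported and 28 moved. A turn in direction was called only for a rho of at least 0.1 in size under both settings, and 0 met this. Smaller values did change sign, such as the rho of Ifitm1 with the interferon score, from -0.0289 to 0.0246 with the dissociation score regressed out. The limits for staying close were 10% for a level, the exact interval for a share and 0.1 for a rho. They were 10 points for a percentile and 1.5 times for a difference. Means taken on the linear scale gave logs of 0.253 for Ifitm1 and 1.64 for Ifi27. A pseudocount of 0.1 gave -2.09 for Ifitm1, 1.46 for Ifitm2 and 0.78 for Ifi27. Cells with at least 4000 genes gave a mean of 0.096 for Ifitm1, and detection of 100% for Ifitm2 and 97.2% for Ifi27. A limit of 1 gave detection of 3.96% for Ifitm1, 90.2% for Ifitm2, 99.4% for Ifitm3 and 69.1% for Ifi27, and thinned reads gave 6.16% for Ifitm1, 97.9% for Ifitm2 and 81.5% for Ifi27. Spread percentiles moved to 34 and 0.143 for Ifitm3 with the detection limit at 10% and without one, and to 11.2 for Ifitm2 and 44 for Ifi27 on the squared coefficient of variation. The rho of Ifitm1 and Ifitm2 was 0.0236 with mitochondrial and ribosomal shares regressed out. The rho of Ifitm3 with interferon genes was 0.121 as the median over all 41 single genes. The difference between clusters was 0.153 for Ifitm1 and 0.711 for Ifitm3 with their genes kept in the clustering, which also changed the resolution to 0.8 and gave 6 clusters, and 0.166, 0.77 and 0.319 for Ifitm1, Ifitm3 and Ifi27 at resolution 1.5. With 1 mismatch allowed, the promoter core was found in 90.9% of the interferon-stimulated genes and 38.9% of all genes. The regression on mitochondrial and ribosomal shares, the scaled score, the score without Ly6e and Bst2 and the split by depth were chosen after seeing the data. Apart from these alternatives' own construction, the cause of a move was not tested. No paired analysis was possible because all cells form 1 group with no second group to pair them with. Detection of Ifi27 was lower in cells with fewer reads, and with 1 pool of mice no value carries the spread between animals.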
